A study of Mus musculus with 18 samples.

Results

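The regions described here are the accessible chromatin sites around 7 genes of the endothelial response to blood flow, measured by ATAC-seq in lung endothelial cells (ECs) of 18 mice. The genes were the Krüppel-like factors Klf2, Klf4, Klf6, Klf9 and Klf10, the nitric oxide synthase gene Nos3 and the mechanosensitive ion channel gene Piezo1. Peaks of all 18 lists that overlapped by at least 1 bp were merged, and those supported by 2 or more samples formed a consensus set of 47338 regions. A consensus region was assigned to a gene when that gene had the RefSeq transcription start site (TSS) nearest to the midpoint of the region, or when the midpoint lay within the gene body. This gave 77 regions, 14 for Klf2, 20 for Klf4, 7 for Klf6, 12 for Klf9, 12 for Klf10, 3 for Nos3 and 9 for Piezo1. Assignment by nearest TSS alone gave 71 of them.

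All mice were Col1a1-GFP transgenic animals of the FVB strain, in which GFP marks collagen-producing cells. Animals were 2 months (Young) or 18 months (Aged) of age and received PBS (Sham) or about 1 U/kg of bleomycin (Bleo), a drug that injures the lung and induces fibrosis, through the trachea. Lungs were taken at day 30, and ECs were sorted as CD31+ cells after depletion of CD45+ leukocytes, CD326+ epithelial cells and GFP+ cells. The Young Sham and Aged Bleo groups had 5 mice each, the Young Bleo and Aged Sham groups 4 each, and each peak list came from 1 mouse, so p-values refer to the spread between mice. A sorted population holds all types of lung EC, so a change in the share of 1 EC type and a change within cells cannot be told apart.

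Laminar flow over the vessel wall is sensed by junctional receptors and by channels such as PIEZO1, and the signal passes through the MEK5 and ERK5 kinases to MEF2 factors, which activate Klf2 and Klf4. KLF2 and KLF4 hold ECs in a quiescent, anti-inflammatory and anti-thrombotic state, and NOS3, which makes the vasodilator nitric oxide, is among their targets. KLF6 is known as an early response factor in vascular injury, KLF9 as a target of steroid hormone receptors and KLF10 as an early target of TGF-beta.

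The sequences below are shown because these sites either carry a motif tied to this pathway or differed between groups. Capitals mark matches, on either strand, to the ERG core CAGGAAG, the KLF CACCC box CCACACCC, the AP-1 site TGANTCA or the MEF2 site, which is CTA and TAG separated by 4 bases. All are from the mm10 genome as given by RefSeq. The 250 bases upstream of the Klf2 TSS, chr8:72318812-72319061 on the plus strand, held a MEF2 match, as did 3.20% of the upstream windows of this length in the RefSeq promoter table.
Klf2 upstream: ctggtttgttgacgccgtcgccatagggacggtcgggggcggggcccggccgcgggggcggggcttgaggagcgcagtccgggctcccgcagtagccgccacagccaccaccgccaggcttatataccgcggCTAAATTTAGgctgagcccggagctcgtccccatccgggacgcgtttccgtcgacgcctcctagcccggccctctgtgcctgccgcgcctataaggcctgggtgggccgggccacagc
The next 3 windows are 200 bases centred on the strongest summit of a region, on the plus strand. Those 3279 bp (chr8:122547895-122548094) and 27895 bp (chr8:122523294-122523493) downstream of the Piezo1 TSS, both in introns, each held an ERG core. The window 54018 bp downstream of the Piezo1 TSS (chr8:122497064-122497263), also intronic, is a tandem repeat in which the commonest run of 8 bases occurred 7 times.
Piezo1 +3279: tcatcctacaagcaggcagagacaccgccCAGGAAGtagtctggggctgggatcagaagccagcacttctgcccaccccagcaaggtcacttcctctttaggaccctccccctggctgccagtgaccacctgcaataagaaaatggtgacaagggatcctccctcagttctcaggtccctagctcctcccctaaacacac
Piezo1 +27895: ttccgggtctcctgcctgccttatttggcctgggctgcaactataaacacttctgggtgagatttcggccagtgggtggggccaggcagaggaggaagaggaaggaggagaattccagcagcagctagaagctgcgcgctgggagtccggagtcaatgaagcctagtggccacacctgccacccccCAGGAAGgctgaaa
Piezo1 +54018: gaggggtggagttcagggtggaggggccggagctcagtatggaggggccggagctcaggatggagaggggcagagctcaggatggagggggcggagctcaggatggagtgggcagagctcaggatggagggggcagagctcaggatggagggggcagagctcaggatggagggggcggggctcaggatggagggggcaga
The 4 distal windows that follow differed between groups in the results below and held none of the 4 motifs. They lie 90909 bp (chr15:38391502-38391701) and 77586 bp (chr15:38378195-38378394) upstream of Klf10, 550202 bp upstream of Klf4 (chr4:56082544-56082743) and 78135 bp upstream of Klf9 (chr19:23063038-23063237).
Klf10 -90909: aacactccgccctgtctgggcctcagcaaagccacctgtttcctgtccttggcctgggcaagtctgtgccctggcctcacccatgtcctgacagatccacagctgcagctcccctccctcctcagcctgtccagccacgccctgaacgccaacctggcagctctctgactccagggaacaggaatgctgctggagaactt
Klf10 -77586: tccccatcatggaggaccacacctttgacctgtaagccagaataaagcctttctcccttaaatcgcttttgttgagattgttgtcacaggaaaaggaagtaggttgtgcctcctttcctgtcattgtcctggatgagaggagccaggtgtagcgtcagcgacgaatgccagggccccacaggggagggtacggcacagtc
Klf4 -550202: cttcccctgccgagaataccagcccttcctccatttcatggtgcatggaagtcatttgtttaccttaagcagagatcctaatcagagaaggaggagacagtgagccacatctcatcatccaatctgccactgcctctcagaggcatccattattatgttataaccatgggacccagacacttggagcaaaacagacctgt
Klf9 -78135: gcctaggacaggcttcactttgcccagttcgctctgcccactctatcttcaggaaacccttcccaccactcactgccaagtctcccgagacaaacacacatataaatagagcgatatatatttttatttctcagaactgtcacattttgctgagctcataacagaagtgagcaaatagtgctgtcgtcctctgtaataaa
Over all 77 summit windows, the ERG core was found in 17 (22.1%, against 20% of all consensus regions), the CACCC box in 5 (6.49% against 3.64%), the MEF2 site in 4 (5.19% against 2.97%) and the AP-1 site in 8 (10.4% against 8.72%). A MEF2 match was found in the windows at the Klf2 and Klf6 TSS and in that 46928 bp downstream of Klf2. These shares are descriptions and were not tested.

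The lists held 21050 to 40883 peaks, and a sample had a peak in 43.0% to 80.4% of the consensus regions. Aged Sham lists had a peak in 52.6% to 65.5% of all regions, Young Sham lists in 61.7% to 77.7%, and Aged Bleo lists in 43.0% to 80.4%. The member regions followed their lists, with 34 of 77 called in Aged Bleo 4 and 65 of 77 in Aged Bleo 2. The depth of a library was read from the peaks themselves as the coverage of the genome background, which was 1.02 to 1.78 fragments. All Young Sham samples were sequenced on lane 8, and all Aged Bleo samples on lane 6. Young Bleo was on lane 7 except for sample 4 on lane 8, and Aged Sham on lane 7 except for sample 4 on lane 6. Young Sham shared no lane with Aged Sham or Aged Bleo, and Young Bleo shared none with Aged Bleo, so no value within a lane exists for these 3 comparisons, and a fit with lane as a term rests on Young Bleo 4 and Aged Sham 4. Of 10 endothelial marker genes, Cdh5, Kdr, Tie1, Erg, Cldn5 and Egfl7 had a promoter peak in every sample. By sample, 9 to 10 of the genes did in Young Sham and in Young Bleo, 7 to 9 in Aged Sham and 6 to 10 in Aged Bleo. None of 8 leukocyte and none of 8 epithelial marker promoters had a peak in any sample, and of 8 fibroblast and mural genes only Pdgfra did, in every sample.

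The 7 genes differed in how their accessible sites were placed. Klf2 (chr8:72319062-72321654, plus strand) had its 14 regions within 46928 bp of the TSS, whereas Klf4 (chr4:55527137-55532475, minus strand) had 15 of 20 regions more than 50 kb away and its farthest 581267 bp upstream. Klf6 (chr13:5861489-5870393, plus strand) had 3 of 7 regions beyond 50 kb, all downstream and up to 332335 bp from the TSS. Klf9 (chr19:23141226-23168129, plus strand) and Klf10 (chr15:38291464-38300711, minus strand) each had 5 of 12 regions in a cluster between 73316 and 90909 bp upstream. Nos3 (chr5:24364819-24384474, plus strand) had 3 regions within 18728 bp, and Piezo1 (chr8:122481698-122551329, minus strand) had 7 of 9 regions in its introns. Of the 77 regions, 52 were intergenic (67.5%, against 34.9% of all consensus regions), 17 intronic and 2 in coding exons. Only 6 were promoter regions, with a midpoint no more than 1000 bp before or 100 bp after a TSS (7.79%, against 21.3%). The region over the Klf2 TSS, 1232 bp wide, was centred 240 bp into the gene and counted as intronic.

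**Figure D1:**
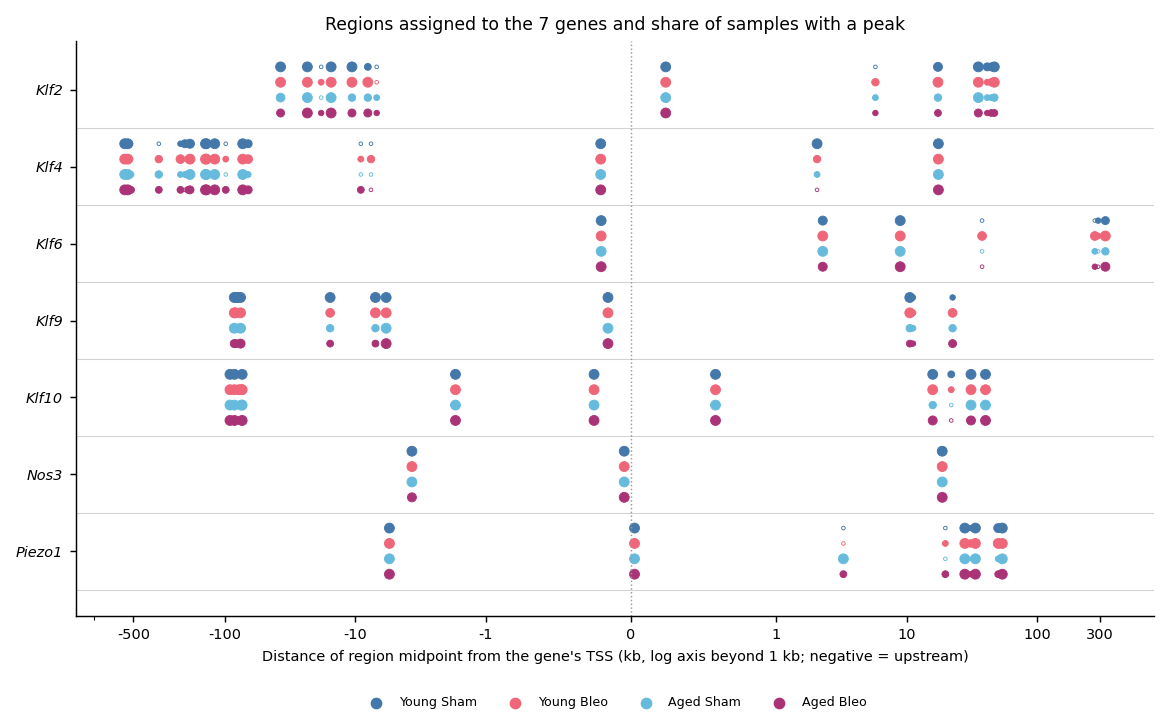
Position of the 77 regions as the distance of each midpoint from the TSS of its gene (kb, log axis beyond 1 kb), with a row of points for each group within a gene. The area of a point grows with the share of samples with a peak, and an open point had none. The regions of Klf2 lay within 46928 bp, while Klf4 had regions up to 581267 bp away.

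Peaks were found in all 18 samples at 29 of the 77 regions (37.7%, against 36.8% of all consensus regions), 3 of Klf2, 8 of Klf4, 2 of Klf6, 2 of Klf9, 7 of Klf10, 2 of Nos3 and 5 of Piezo1. The region over or next to the TSS was among them for each of the 7 genes. Over all promoter regions, 79.2% had a peak in all samples. The TSS region was taken from regions over a TSS with a peak in all samples where there were any, so this result is partly fixed by that choice. At the other end, 11 regions had a peak in only 2 or 3 samples, 5 of these near Klf4. Regions more than 50 kb from the TSS were called in all samples in 10 of 30 cases (33.3%), against 25.4% of all consensus regions that are not promoters.

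Accessibility at the start sites is given here as height, which is the number of fragments at the summit divided by the background coverage of the same library. Over the 17412 regions with a peak in all 18 samples and a solved height in each, the Klf6 TSS region was among the highest, with a median of 389 times background and a height above that of 99.2% of regions. The start sites of Klf4, Klf2, Klf10 and Klf9 followed with medians of 254, 240, 215 and 191, above 96.4%, 95.7%, 94.2% and 92.2% of regions. Piezo1 had a median of 88.7 and Nos3 of 26.5, above 71.7% and 23.6% of regions. The ranges of neighbours in this order overlapped, and the order was not tested. The deposited fold enrichment gives another order, because it divides by the local background, which was 29.0 times the genome background at the Klf10 TSS and 2.43 times at the Nos3 TSS. By fold enrichment, the Klf10 start site stood above 4.12% of regions and the Klf2 start site above 72.8%.

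The Klf2 TSS region had heights of 260, 220, 208, 236 and 219 in Young Sham, 208, 280, 294 and 245 in Young Bleo, 221, 222, 249 and 233 in Aged Sham, and 307, 457, 310, 222 and 262 in Aged Bleo. For the Klf4 TSS region, heights were 234, 249, 233, 239 and 257 in Young Sham, 252, 352, 300 and 271 in Young Bleo, 218, 230, 240 and 271 in Aged Sham, and 321, 506, 359, 246 and 273 in Aged Bleo. In both, the highest value was that of Aged Bleo 2, and the groups overlapped. The Aged Bleo libraries lay apart over all regions as well, with a median log2 height against the mean of the samples of 0.53 in Aged Bleo 2, -0.55 in Aged Bleo 4 and -0.27 in Aged Bleo 5, beside -0.22 to 0.38 in the other 15 samples. In limma on log2 height with Benjamini-Hochberg adjustment over all 17412 regions, Klf2 was 0.41 ± 0.18 (log2, SE) higher in Aged Bleo than in Young Sham (adjusted p = 0.142) and Klf4 was 0.45 ± 0.18 higher (adjusted p = 0.110). Aged Sham differed from Young Sham by 0.02 ± 0.19 at Klf2 (adjusted p = 0.993) and by -0.02 ± 0.19 at Klf4 (adjusted p = 0.995). None of these differences passed the threshold of 0.05.

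The Klf10 TSS region had heights of 193, 196, 172, 194 and 194 in Young Sham, 186, 286, 252 and 217 in Young Bleo, 187, 213, 216 and 235 in Aged Sham, and 289, 403, 284, 196 and 241 in Aged Bleo. Aged Bleo samples began at 196, where Young Sham samples ended, and the difference was 0.53 ± 0.18 (log2, SE, adjusted p = 0.0602, limma). The region in a Klf10 intron, 583 bp downstream of the nearest annotated Klf10 TSS (chr15:38298872-38299762), had heights of 215, 198, 196, 240 and 207 in Young Sham, 227, 348, 321 and 256 in Young Bleo, 232, 254, 241 and 280 in Aged Sham, and 347, 487, 349, 257 and 299 in Aged Bleo. Aged Bleo did not overlap with Young Sham and overlapped with both other groups. The height rose by 0.69 ± 0.17 against Young Sham (log2, SE, adjusted p = 0.0161, limma). Aged Bleo differed from Aged Sham by 0.44 ± 0.18 and from Young Bleo by 0.26 ± 0.18, and Young Bleo from Young Sham by 0.43 ± 0.18 (limma, adjusted p = 0.226, 0.987 and 0.260), none of which passed. Its rank by fold enrichment differed by 10.4 ± 4.20 points between Aged Bleo and Young Sham (limma, adjusted p = 0.140). The median log2 height difference between these groups was -0.13 over all 17412 regions, -0.10 over 7976 promoters, 0.08 over the 29 members tested and 0.41 over the 7 start sites. At the Piezo1 TSS the difference was 0.54 ± 0.22 (adjusted p = 0.121), at Klf6 0.15 ± 0.16 (adjusted p = 0.569), at Klf9 0.01 ± 0.21 (adjusted p = 0.989) and at Nos3 0.30 ± 0.31 (adjusted p = 0.573), all by limma. By height, 2 of the 29 members tested passed in Aged Bleo against Young Sham (background 9.28%) and 2 in Young Bleo against Young Sham (background 2.71%). There were 0 in Aged Sham against Young Sham (background 0.270%), 0 in Aged Bleo against Aged Sham (background 1.64%) and 0 in Aged Bleo against Young Bleo (background 0.103%).

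**Figure D2:**
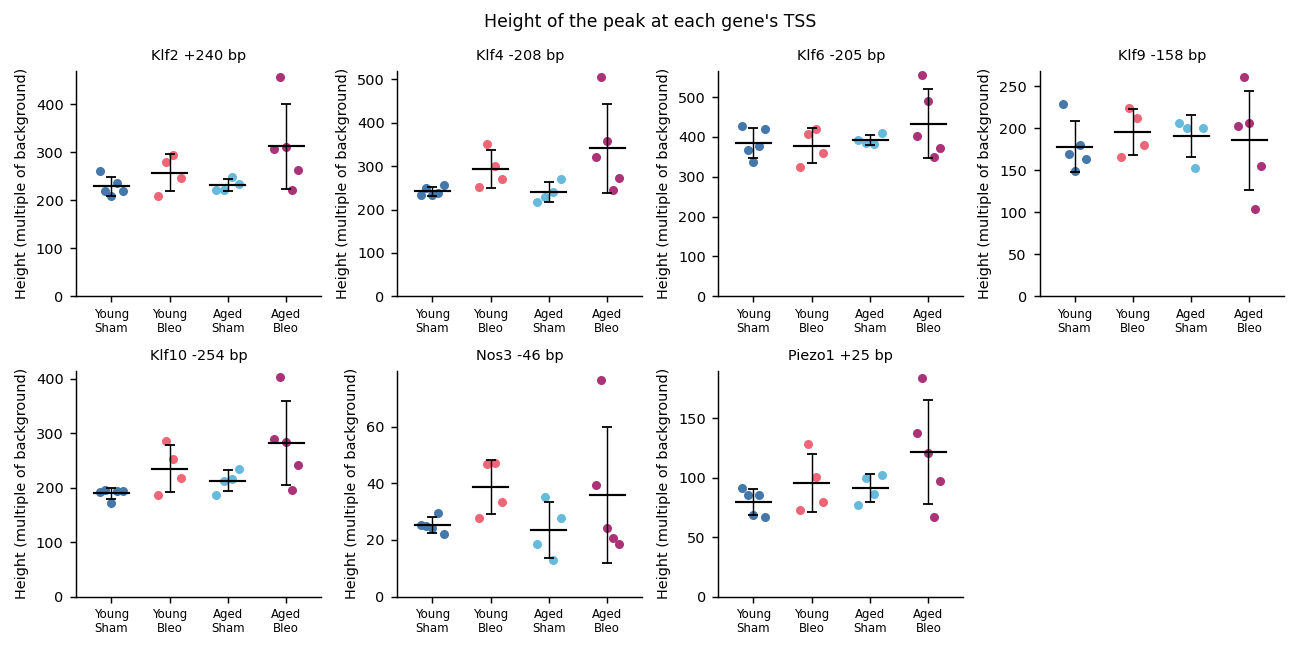
Height of the peak at the TSS of each gene in every sample, as a multiple of the library's background, on linear axes that start at 0. Points are samples, lines the group mean and bars the SD. The Klf6 start site was the highest (median 389) and the Nos3 start site the lowest (median 26.5), and the SD was largest in Aged Bleo at all 7 start sites, a group whose libraries also lay farthest apart in height over all regions.

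The number of a gene's regions that carried a peak was compared between groups by exact permutation, and 3 genes, Klf6, Klf9 and Klf10, had an unadjusted p under 0.05, while no gene of the 7 passed after Benjamini-Hochberg adjustment over 17958 genes (adjusted p of 0.401 or more). Klf6 had peaks in 4, 4, 4, 3 and 3 of its 7 regions in Young Sham and in 5, 5, 7 and 6 in Young Bleo, without overlap, a difference in means of 2.15 (exact permutation, two-sided p = 0.00794). Aged Bleo mice had 5, 4, 4, 2 and 4, which was 1.95 fewer than in Young Bleo (exact permutation p = 0.0317). The site 37819 bp downstream, counted here, had peaks in Young Bleo alone and entered the consensus set through them. The lack of overlap and both Klf6 p-values thus rest in part on a region chosen by that group. For Klf9, 12, 10, 10, 10 and 10 of 12 regions had a peak in Young Sham, 8, 10, 9 and 9 in Young Bleo, 7, 11, 5 and 7 in Aged Sham, and 7, 10, 7, 4 and 4 in Aged Bleo. The means of Young Bleo and Aged Bleo differed by -1.40 and by -4.00 from Young Sham (exact permutation p = 0.0397 for each), and that of Aged Sham was 2.90 lower (exact permutation p = 0.0873). The Klf9 site 78135 bp upstream entered the consensus set through Young Sham, so these p-values also rest in part on a region chosen by that group. For Klf10, 10, 10, 11, 9 and 10 of 12 regions had a peak in Young Sham and 11, 12, 11 and 11 in Young Bleo, a difference of 1.25 (exact permutation p = 0.0397). Over 17958 genes with a region, 5.37% passed as higher and 2.22% as lower in Young Bleo against Young Sham, 4.82% as lower in Aged Bleo against Young Sham and 4.13% as lower in Aged Bleo against Young Bleo, against 2, 1, 1 and 1 of the 7 genes.

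These counts moved with the length of the lists. With each list limited to its 21050 strongest peaks, the differences became 0.850 for Klf6 in Young Bleo against Young Sham (exact permutation p = 0.119), 0.150 for Klf6 in Aged Bleo against Young Bleo (p = 1.00 by the same exact test), and -0.450 and -0.800 for Klf9 (exact permutation p = 0.825 and 0.516). The Klf10 difference was 1.95 (exact permutation p = 0.00794). The Klf6 difference between Young Bleo and Young Sham and the Klf9 difference between Aged Bleo and Young Sham passed with any 1 sample left out (exact permutation p at most 0.0286 and 0.0476). The other 3 did not. Klf9 in Young Bleo passed only without Young Bleo 2, Klf10 only without Young Sham 3, and Klf6 in Aged Bleo against Young Bleo only without Aged Bleo 1, Young Bleo 1 or Young Bleo 2, with exact permutation p otherwise up to 0.268, 0.125 and 0.107.

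**Figure D3:**
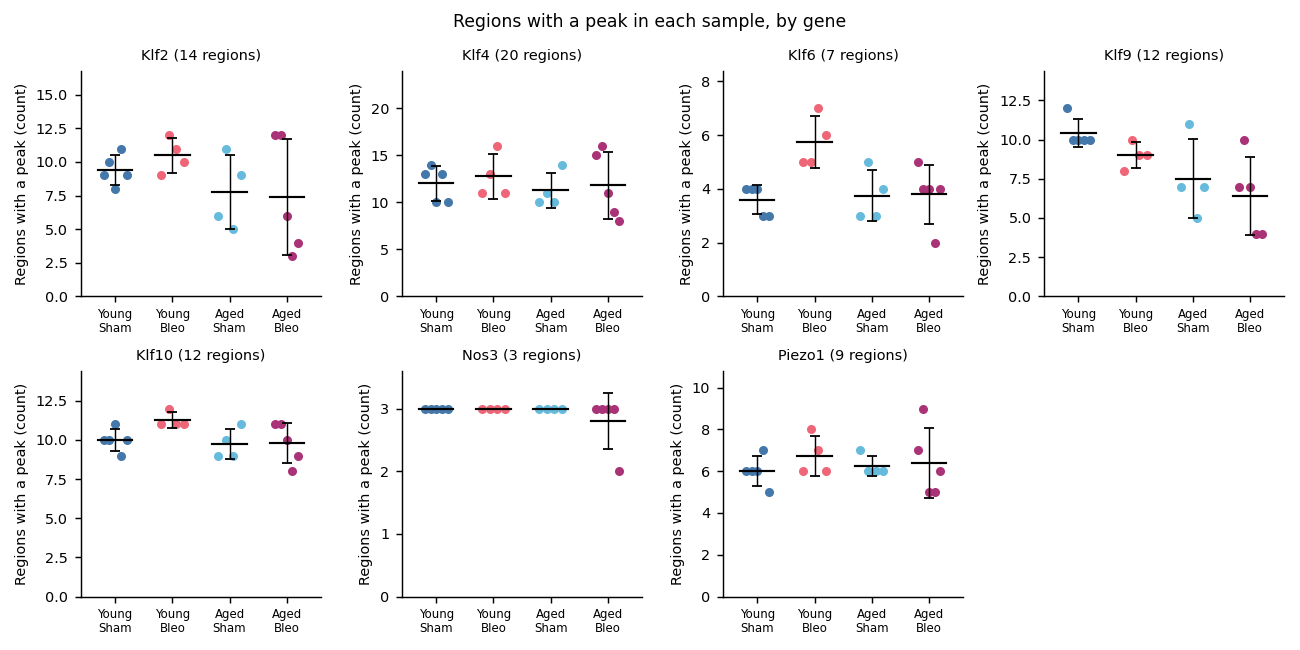
Number of a gene's regions with a peak in each sample, with the group mean (line) and SD (bar), on axes that start at 0 with the gene's number of regions in the title. The 4 Young Bleo samples had 5 to 7 Klf6 regions against 3 or 4 in Young Sham, and Klf9 fell from 10 to 12 regions in Young Sham to 4 to 10 in Aged Bleo.

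Peak presence at each region was compared between groups by Fisher's exact test (two-sided), whose smallest possible p was 0.00794. In Aged Sham against Young Sham, 2 member regions had a peak less often (2.60%, background 4.90%) and 1 more often (1.30%, background 0.264%). In Young Bleo against Young Sham, 2 had a peak less often (2.60%, background 1.96%) and 3 more often (3.90%, background 3.98%). In Aged Bleo against Young Sham, 2 had a peak less often (2.60%, background 3.01%) and 0 more often (background 0.201%). There were 0 in Aged Bleo against Aged Sham (background 0.885% in either direction) and 1 in Aged Bleo against Young Bleo (background 2.57%). No region, member or not, passed Benjamini-Hochberg adjustment of the Fisher p.

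Strength was compared as the rank of a region, its percentile by fold enrichment among the consensus regions in the same sample. Tied regions were given their mean position. Regions without a peak tied at the bottom of the list, so their shared rank is above 0 and is higher in a shorter list. Differences in rank are given in rank points, ± SE, with p from limma adjusted by Benjamini-Hochberg over all 47338 regions. Aged Sham against Young Sham gave 0 member regions lower (background 0.718%) and 1 higher (background 0.418%). Young Bleo against Young Sham gave 3 lower (3.90%, background 2.68%) and 3 higher (3.90%, background 2.71%). Aged Bleo against Young Sham gave 3 lower (3.90%, background 3.33%) and 7 higher (9.09%, background 3.86%). Both counts of lower regions hold the Klf9 site 78135 bp upstream, which entered the consensus set through Young Sham. The 7 higher hold the Piezo1 site at 19783 bp, which entered through Aged Bleo, so these calls are not independent of selection. A single region passed in Aged Bleo against Aged Sham (background 0.0951%) and a single region in Aged Bleo against Young Bleo (background 1.48%), both lower. The difference between the bleomycin effects in aged and in young mice, tested as an interaction, passed at 0 member regions (background 0.144%), with 11 of 77 (14.3%) at an unadjusted p of at most 0.05, beside 8.81% of all regions.

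The site that passed in both Bleo groups by rank and by height was intergenic, 90909 bp upstream of Klf10 (chr15:38391361-38391879). Its next nearest gene start, that of Mir6951, lies 98927 bp away. The summit held 14, 21, 16, 21 and 10 fragments in Young Sham and 41, 38, 42 and 42 in Young Bleo, or heights of 11.1, 11.9, 8.99, 13 and 7.34 and of 24.4, 25.4, 25 and 24.3. Aged Sham samples had heights of 11.8, 11.2, 20.6 and 14.5, and Aged Bleo samples of 31.9, 49.2, 25.3, 12.3 and 17.6. All Young Bleo samples lay above all Young Sham samples, as did 4 of 5 Aged Bleo samples, while Aged Sham overlapped with Young Sham. The site rose by 29.3 ± 5.01 rank points in Young Bleo (limma, adjusted p = 0.00332) and by 27.1 ± 4.72 in Aged Bleo (adjusted p = 0.00610) against Young Sham. In height, the increases were 1.27 ± 0.29 and 1.25 ± 0.27 on the log2 scale (limma, adjusted p = 0.0166 and 0.00628). With any 1 sample left out, both rank calls held, with adjusted p of at most 0.0125 and 0.0181. The difference between Aged Bleo and Aged Sham was 14.4 ± 5.01 (limma, adjusted p = 0.335) and the interaction -14.9 ± 7.09 (limma, adjusted p = 0.569), so a difference between the ages in the response was not shown. The 1 Young Bleo sample on the lane of Young Sham had a height of 24.3, close to the other three. With lane as a term the rank differences were 30.5 and 24.4, with limma adjusted p of 0.192 and 0.727.

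Nearby in the same upstream cluster, the site 77586 bp from Klf10 (chr15:38378137-38378456) had a peak in 0 of 5 Young Sham, 4 of 4 Young Bleo, 1 of 4 Aged Sham and 2 of 5 Aged Bleo samples (Young Bleo against Young Sham, two-sided Fisher's exact p = 0.00794). Its heights were 29.1, 38.0, 34.0 and 17.3 in Young Bleo, 18.7 in Aged Sham 4, and 23.8 and 55.4 in Aged Bleo 1 and 2. In rank it rose by 20.2 ± 4.05 in Young Bleo against Young Sham (limma, adjusted p = 0.00867, and at most 0.0328 with any sample left out). With lists of equal length the difference was 10.4 (limma, adjusted p = 0.0817). The strongest distal site of Klf10 by rank, 73316 bp upstream (chr15:38373762-38374292), went the other way. Its ranks of 92.7, 92.3, 92.6, 93.5 and 92.6 in Young Sham stood above 81.9, 87.3, 84.8 and 79.9 in Young Bleo, and it fell by 9.27 ± 1.92 (limma, adjusted p = 0.0106, and at most 0.0361 with any sample left out). Its height changed by only -0.11 ± 0.26 on the log2 scale (limma, adjusted p = 0.900), while fold enrichment is relative to the local background.

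At the Klf4 locus, a site 550202 bp upstream (chr4:56082386-56082967), whose next nearest gene start, that of Actl7b, is 658748 bp away, lost signal in Young Bleo. Its heights were 25.3, 30, 25.3, 34.5 and 24.2 in Young Sham, 13.1, 18.0, 14.9 and 7.52 in Young Bleo, 26.4, 52.4, 42.2 and 20.1 in Aged Sham, and 17.5, 30.8, 30.7, 13.2 and 20.2 in Aged Bleo. All Young Bleo samples lay below all Young Sham and all Aged Sham samples. It fell by 23 ± 5.11 rank points (limma, adjusted p = 0.0160, and at most 0.0412 with any sample left out) and its log2 height fell by 1.12 ± 0.29 (adjusted p = 0.0385). This was the single Young Bleo call of a member that passed with lane as a term, where the difference was -41.5 (limma, adjusted p = 0.0132). The interaction was 16.4 ± 7.23 (limma, adjusted p = 0.525).

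Within the Klf4 gene, a peak in the coding exon 2062 bp downstream of the TSS (chr4:55530267-55530558) was found in 5 of 5 Young Sham, 2 of 4 Young Bleo, 1 of 4 Aged Sham and 0 of 5 Aged Bleo samples. Fisher's exact p was 0.0476 for Aged Sham and 0.00794 for Aged Bleo against Young Sham, two-sided. Where called, its heights were 79.1, 56.6, 46.6, 66.6 and 43.3 in Young Sham, 35.7 and 54.2 in Young Bleo and 50.5 in Aged Sham, and its ranks were 19.8 to 38.3. In rank it differed by -10.2 ± 4.55 between Aged Bleo and Young Sham, which did not pass (limma, adjusted p = 0.176). With lists of equal length, Fisher's exact p was 0.167 for both comparisons. The call for Aged Sham held without Aged Sham 4 and was lost without any other sample (exact p = 0.107 or 0.143), while that for Aged Bleo held throughout.

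Further Klf4 sites passed in rank in Aged Bleo against Young Sham. The site 17504 bp downstream (chr4:55514686-55515255) fell from 91.8, 91.3, 91.7, 92.4 and 90.6 to 82.9, 84.8, 90.5, 80.7 and 74.7, or by 8.88 ± 2.21 (limma, adjusted p = 0.0266). It also fell by 10.5 ± 2.35 against Young Bleo (adjusted p = 0.0352). The first of these calls was lost without Young Sham 1, 2, 3 or 4 or Aged Bleo 1 (limma, adjusted p up to 0.0620), and the second without Young Sham 3, any Young Bleo sample, Aged Bleo 1 or Aged Bleo 4 (up to 0.0988). Its height did not pass, with a log2 difference from Young Sham of -0.36 ± 0.23 (limma, adjusted p = 0.330). The strongest distal site of Klf4 by rank, 72629 bp upstream, had ranks of 90.0 to 96.9 outside Aged Bleo and 86.9 to 94.8 within it, a difference from Young Sham of -5.20 ± 1.73 (limma, adjusted p = 0.0776). A site 9051 bp upstream passed with 18.5 ± 5.34 (limma, adjusted p = 0.0472) on peaks in only 2 of 5 Aged Bleo samples against 0 of 5. The rank given to a region without a peak was 11.1 to 19.1 in Young Sham and 9.81 to 28.5 in Aged Bleo, and with such regions set to rank 0 this call was lost (limma, adjusted p = 0.283). It was also lost in 14 of 18 fits with 1 sample left out, in all but those without Young Bleo 2 or 3 or Aged Bleo 3 or 5 (adjusted p up to 0.103).

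Klf2 had no region past either test in any of the 5 comparisons. Its strongest site by fold enrichment lay 23232 bp upstream (chr8:72295426-72296233), with a rank of 93.4 to 99.2 over the 18 samples. In height, of 124 to 329 with a median of 175, it was lower than the Klf2 TSS region, whose median was 240. Aged Bleo differed from Young Sham there by 0.311 ± 1.37 rank points (limma, adjusted p = 0.920) and Aged Sham by 0.250 ± 1.45 (adjusted p = 0.955). The Klf2 TSS region had ranks of 83.9 to 93.7, and Young Bleo differed from Young Sham by -4.65 ± 2.01 (limma, adjusted p = 0.207). The weaker Klf2 sites varied between mice of 1 group. The site 8001 bp upstream, for instance, had a peak in 2 of 5 Young Sham, 4 of 4 Young Bleo, 2 of 4 Aged Sham and 3 of 5 Aged Bleo samples. Aged Bleo mice had peaks in 12, 12, 6, 3 and 4 of the 14 regions, against 9, 10, 8, 11 and 9 in Young Sham (difference in means -2.0, exact permutation p = 0.381).

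Of 5 Klf9 sites clustered 75408 to 84287 bp upstream of its TSS, 2 had a peak less often in at least 1 comparison with Young Sham. Such calls were made at 2.60% of member regions in each comparison, beside backgrounds of 1.96% for Young Bleo, 4.90% for Aged Sham and 3.01% for Aged Bleo. At the site 78135 bp upstream (chr19:23062927-23063254), a peak was present in 5 of 5 Young Sham samples, with heights of 18.2, 15.9, 14.6, 19.7 and 16.1, and in 1 of the other 13, Aged Sham 2, with a height of 14.6. With only 1 peak outside Young Sham, the site entered the consensus set through that group. Its tests against Young Sham, by presence and by rank, are thus not independent of its selection. Against Young Sham, Fisher's exact p was 0.00794 for Young Bleo and for Aged Bleo and 0.0476 for Aged Sham, two-sided. Rank fell by 24.2 ± 5.06 in Young Bleo (limma, adjusted p = 0.0113, and at most 0.0380 with any sample left out) and by 18.1 ± 4.77 in Aged Bleo (adjusted p = 0.0329). The latter call was lost without any 1 Young Sham sample, Aged Bleo 1 or Aged Bleo 2 (limma, adjusted p up to 0.0742). The Fisher call for Aged Sham held only without Aged Sham 2. The neighbouring site 79831 bp upstream had a peak in 5 of 5 Young Sham, 1 of 4 Young Bleo, 2 of 4 Aged Sham and 2 of 5 Aged Bleo samples (Young Bleo against Young Sham, Fisher's exact p = 0.0476, held only without Young Bleo 4). With lists of equal length, Fisher's exact p was 0.167 for this site, and 0 of the 18 samples had a peak at that 78135 bp upstream. The summits at 78135 bp held 22 to 32 fragments in Young Sham, against a median of 29.0 to 35.0 over all peaks of those lists. The site in the Klf9 intron, 10572 bp downstream, was called in 5 of 5 Young Sham and 2 of 5 Aged Bleo samples and fell by 23.2 ± 6.0 in rank (limma, adjusted p = 0.0306). That call was lost without Young Sham 1, 2 or 3 or Aged Bleo 1, 3 or 5 (limma, adjusted p up to 0.0690), and the direction was the opposite with lane as a term (16.4, adjusted p = 0.849). The Klf9 TSS region and its strongest other region, 5791 bp upstream, had ranks of 68.8 to 84.9 and of 63.7 to 80.5. In Aged Bleo against Young Sham they differed by 5.47 ± 2.77 and 3.79 ± 2.97 (limma, adjusted p = 0.233 and 0.459).

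At 2 distal Klf6 sites, a peak was called more often in Young Bleo than in Young Sham, as at 3.90% of member regions and 3.98% of all regions. The site 37819 bp downstream of the TSS (chr13:5899115-5899501) was called in 3 of 4 Young Bleo samples and in 0 of the other 14, and the site 275979 bp downstream (chr13:6137292-6137643) in 3 of 4 Young Bleo, 0 of 5 Young Sham, 1 of 4 Aged Sham and 1 of 5 Aged Bleo samples. With lists of equal length, 0 of the 18 samples had a peak at either site. The first site entered the consensus set through Young Bleo peaks alone, so tests of that group are not independent of its selection. Fisher's exact p was 0.0476 for each against Young Sham, and 0.0476 for the first in Aged Bleo against Young Bleo, two-sided. With 1 sample left out, these calls held only without the Young Bleo sample that lacked the peak, which was Young Bleo 2 at the first site and Young Bleo 1 at the second. They were lost when peaks had to cover at least 50% of the region (exact p = 0.167 for each), and the second also with peaks of -log10 q of at least 5 (exact p = 0.444). The Klf6 promoter, at ranks of 88.6 to 96.9, differed by -1.44 ± 1.89 in Young Bleo and by 2.48 ± 1.78 in Aged Bleo from Young Sham (limma, adjusted p = 0.744 and 0.412). The strongest other Klf6 site, just past the gene end at 8928 bp (chr13:5869905-5870929), had ranks of 67.1, 62.2, 62.0, 60.6 and 62.4 in Young Sham, 58.4, 68.8, 64.4 and 60.5 in Young Bleo, 70.4, 70.7, 74.0 and 77.0 in Aged Sham, and 70.5, 69.1, 80.4, 71.0 and 70.6 in Aged Bleo. In rank, both aged groups lay above all Young Sham samples. Ranks also depend on list length, whose part was not tested. In height both groups overlapped with Young Sham, at 20.5 to 38.8, and Aged Bleo 4 stood at 18.9. Height differences from Young Sham were 0.38 ± 0.24 in Aged Bleo and 0.46 ± 0.26 in Aged Sham (log2, limma, adjusted p = 0.334 and 0.609). The site rose by 9.48 ± 2.50 rank points in Aged Bleo against Young Sham (limma, adjusted p = 0.0330), Aged Sham differed from Young Sham by 10.2 ± 2.65 (adjusted p = 0.0781), and Aged Bleo from Aged Sham by -0.705 ± 2.65 (adjusted p = 0.934). Without Young Sham 2, 3, 4 or 5 or Aged Bleo 1 or 3 the first of these, the single call, was lost (limma, adjusted p up to 0.0801). That difference turned to -20.0 when peaks had to cover at least 50% of the region (adjusted p = 0.338). Its summit window held a run in which 1 set of 8 bases occurred 9 times.

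**Figure D4:**
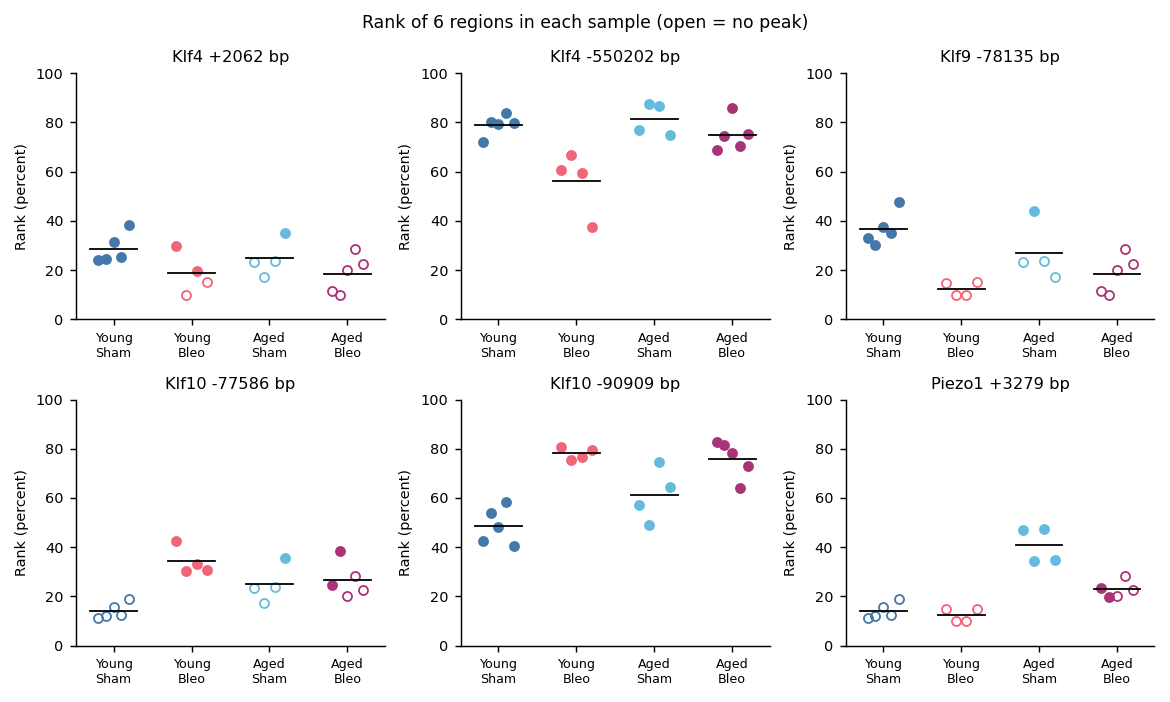
Rank of 6 regions in each sample (percentile by fold enrichment among consensus regions, with tied regions at their mean position). Filled points had a peak, open points had none and stand at the tied rank of their list, and lines are group means. The site 90909 bp upstream of Klf10 was at 75.5 to 80.9 in Young Bleo against 40.6 to 58.2 in Young Sham, and the intronic Piezo1 site had a peak in all 4 Aged Sham samples and in none of the Young Sham or Young Bleo samples.

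An intronic Piezo1 site had a peak more often in Aged Sham than in Young Sham, groups that shared no lane. The site 3279 bp downstream of the TSS (chr8:122547889-122548211), which holds the ERG core shown above, had a peak in 4 of 4 Aged Sham, 2 of 5 Aged Bleo, 0 of 5 Young Sham and 0 of 4 Young Bleo samples (Aged Sham against Young Sham, two-sided Fisher's exact p = 0.00794). Its heights were 24.5, 25.8, 24.5 and 24.2 in Aged Sham and 25.7 and 43.9 in Aged Bleo 1 and 2. The ranks of 46.8, 34.6, 47.6 and 35.0 in Aged Sham lay near the lower end of lists with a peak in 53.5%, 65.5%, 52.6% and 65.1% of all regions, and a peak at the end of a shorter list has a higher rank. With each list limited to its 21050 strongest peaks, 0 of the 18 samples had a peak at this site. The part of list length in the difference was not tested. The rank rose by 27.0 ± 3.02 in Aged Sham (limma, adjusted p = 4.47e-04, and at most 0.00239 with any sample left out). It was 18.1 ± 3.02 lower in Aged Bleo than in Aged Sham (limma, adjusted p = 0.0320), a call lost without Aged Sham 1 or 3 or Aged Bleo 1, 2 or 5 (adjusted p up to 0.107). The interaction was -16.5 ± 4.27 (limma, adjusted p = 0.196). Aged Bleo differed from Young Sham by 8.86 ± 2.85 (limma, adjusted p = 0.0701), which did not pass. With lane as a term the difference between Aged Sham and Young Sham was 32.4 and did not pass (limma, adjusted p = 0.0634).

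Further Piezo1 sites rose in Aged Bleo against Young Sham. The strongest of them, 27895 bp into the gene, had ranks of 74.5, 77.2, 79.1, 74.0 and 73.9 in Young Sham, 82.7, 83.3, 79.4 and 84.0 in Young Bleo, 80.2, 81.7, 80.8 and 84.6 in Aged Sham, and 85.7, 83.7, 84.4, 80.2 and 81.4 in Aged Bleo. In rank, none of the other groups overlapped with Young Sham. Ranks also depend on list length, whose part was not tested. In height all groups overlapped with Young Sham, at 37.4 to 64.1, and Aged Bleo 4 stood at 30.2. Aged Sham differed from Young Sham by 6.08 ± 1.78 rank points (limma, adjusted p = 0.119), and Aged Bleo from Aged Sham by 1.23 ± 1.78 (adjusted p = 0.907). The site rose by 7.31 ± 1.68 in Aged Bleo (limma, adjusted p = 0.0193, and 0.0524 without Young Sham 4) and by 6.58 ± 1.78 in Young Bleo (adjusted p = 0.0419). The Young Bleo call was lost in 11 of 18 fits with 1 sample left out, in all but those without Young Sham 3, Young Bleo 3, Aged Sham 4 or Aged Bleo 1, 2, 4 or 5 (limma, adjusted p up to 0.109). It was also lost with no-peak regions at rank 0 (adjusted p = 0.0614). The tandem repeat site at 54018 bp rose by 8.48 ± 2.38 in Aged Bleo against Young Sham (limma, adjusted p = 0.0427), a call lost in 13 of 18 such fits, in all but those without Young Sham 5, Young Bleo 2 or 4, Aged Sham 4 or Aged Bleo 3 (adjusted p up to 0.0864). In height the differences of these sites from Young Sham were 0.36 ± 0.29 and 0.47 ± 0.23 in Aged Bleo (log2, limma, adjusted p = 0.452 and 0.192). At 27895 bp, Young Bleo differed from Young Sham by 0.31 ± 0.31 in height (log2, limma, adjusted p = 0.703). A site at 19783 bp passed with 14.9 ± 3.81 (limma, adjusted p = 0.0294) on peaks in 2 of 5 Aged Bleo samples against 0 of 5, and did not pass with no-peak regions at rank 0 (adjusted p = 0.288) or without Young Sham 1, 2, 3 or 4 or Aged Bleo 1 or 2 (up to 0.0709). Outside Aged Bleo it had a peak only in Young Bleo 2. It thus entered the consensus set through Aged Bleo, and this rise is not independent of its selection. The Piezo1 TSS region had ranks of 67.7 to 80 and no call.

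Nos3 had 3 regions, and no test passed at any of them. The start site, with the lowest height of the 7, had heights of 25.3, 24.9, 24.2, 29.6 and 22 in Young Sham, 27.9, 46.7, 47.1 and 33.5 in Young Bleo, 18.6, 35.2, 12.8 and 27.7 in Aged Sham, and 39.4, 76.5, 24.4, 20.8 and 18.4 in Aged Bleo. Young Bleo was 0.60 ± 0.33 higher than Young Sham on the log2 scale (limma, adjusted p = 0.417) and differed by 1.96 ± 3.67 in rank (adjusted p = 0.835). The region in a coding exon 18728 bp downstream was assigned by gene body alone, as the start of Atg9b lies closer, 8596 bp away. It differed by -12.2 ± 6.65 rank points in Young Bleo (limma, adjusted p = 0.321). The region 3677 bp upstream had a peak in every sample but Aged Bleo 5.

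By rank over the 18 samples, the promoters most like the Klf2 TSS region among 7985 promoter regions with a peak in every sample were those of Mapk8 (Pearson r = 0.883), Pura (r = 0.865) and Cemip2 (r = 0.863). Those most like the Klf4 TSS region were Ccdc9 (r = 0.930), Zhx1 (r = 0.928) and Scaf1 (r = 0.922). The points share the depth and length of each list, and these values are descriptions.

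Other genes of the pathway were counted in the same way. Sensors, G proteins, junction proteins, kinases, MEF2 factors and class II histone deacetylases upstream of the KLF factors had 183 regions at 22 of 23 genes. In Aged Sham against Young Sham, 6 of these (3.28%, background 4.90%) had a peak less often and 0 more often by Fisher's exact test. In Young Bleo against Young Sham, 4 had a peak less often (2.19%, background 1.96%) and 8 more often (4.37%, background 3.98%). In Aged Bleo against Young Sham, 4 had a peak less often (2.19%, background 3.01%) and 0 more often (background 0.201%). A site 25890 bp upstream of Kdr, the main VEGF receptor, was called in 4 of 5 Young Sham mice and in no other group. It thus entered the consensus set through Young Sham alone, so its falls against that group are not independent of its selection. Those falls were 31.1 ± 6.18 rank points in Young Bleo and 25 ± 5.83 in Aged Bleo (limma, adjusted p = 0.00826 and 0.0203). A site 6287 bp upstream of Heg1, a junctional partner of the CCM complex, was called in every sample and rose by 19.4 ± 4.38 and 23.8 ± 4.13 (limma, adjusted p = 0.0174 and 0.00594). The Trpv4 start site, of another mechanosensitive channel, had a peak in 2 of 5 Young Sham and 4 of 4 Young Bleo samples and rose by 36.9 ± 9.34 (limma, adjusted p = 0.0305, and 0.121 with no-peak regions at rank 0).

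Genes that respond to flow or to KLF2 and KLF4 had 158 regions at 25 of 25 genes. Against Young Sham, Fisher's exact test gave 9 with a peak less often in Aged Sham (5.70%) and 0 more often, 4 and 6 in Young Bleo (2.53% and 3.80%), and 4 and 1 in Aged Bleo (2.53% and 0.633%), beside the same backgrounds. An intronic site of Gja5, a gap junction gene of arterial ECs, lay 12013 bp from the TSS. This site entered the consensus set only through its Young Sham peaks, so falls against Young Sham are not independent of its selection. It had a peak in 5 of 5 Young Sham, 1 of 4 Young Bleo, 0 of 4 Aged Sham and 0 of 5 Aged Bleo samples, and its rank fell by 44.7 ± 5.24 in Young Bleo, 41.7 ± 5.24 in Aged Sham and 43.6 ± 4.94 in Aged Bleo (limma, adjusted p = 2.39e-04, 0.00136 and 3.75e-04). Tek, the angiopoietin receptor gene, had 4 of the 9 regions called less often in Aged Sham. The share of all Tek regions is not reported here, so this count cannot be set beside the background. At 1 of them, chr4:94856149-94856633, peaks were called in 5 Young Sham samples and 1 Aged Sham sample. It entered the consensus set through Young Sham, so its fall is not independent of its selection. The Cxcl12 promoter rose by 13.5 ± 2.44 in Young Bleo and by 13.1 ± 2.30 in Aged Bleo (limma, adjusted p = 0.00485 and 0.00637), and the Angpt2 promoter fell by 22.5 ± 5.10 in Young Bleo (adjusted p = 0.0174). A site 58792 bp upstream of Nfe2l2, the gene of the antioxidant factor NRF2, had a peak in 1 of 5 Young Sham, 4 of 4 Young Bleo, 2 of 4 Aged Sham and 5 of 5 Aged Bleo samples and rose by 42.6 ± 8.80 in Aged Bleo (limma, adjusted p = 0.0134).

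Other genes of the Klf family had 66 regions at 11 of 12 genes, and Fisher's exact test against Young Sham found a peak less often at 4 (6.06%) for Aged Sham, at 1 (1.52%) for Young Bleo and at 2 (3.03%) for Aged Bleo, beside 4.90%, 1.96% and 3.01% of all regions, and more often at 0 in each. A site 52036 bp upstream of Klf3 fell by 43.9 ± 9.07 in Young Bleo and by 46.6 ± 8.55 in Aged Bleo (limma, adjusted p = 0.0105 and 0.00797), and an intronic site of Klf12 rose by 23.1 ± 4.44 and 18.8 ± 4.19 (adjusted p = 0.00688 and 0.0168). By limma on ranks in Aged Bleo against Young Sham, 3, 6 and 1 regions of the 3 lists were lower (1.64%, 3.80% and 1.52%, background 3.33%) and 11, 12 and 3 higher (6.01%, 7.59% and 4.55%, background 3.86%). With regions without a peak at rank 0 these counts were 2, 4 and 1 lower (background 2.90%) and 4, 5 and 2 higher (background 1.08%). The higher sites before this change include ones with 2 Aged Bleo peaks and no others, at Mef2d, Kdr, Heg1, Hmox1, Nqo1, Kdm6b and Edn1. Further ones, at Map2k5, Ddah1, Kdr and Kcnj2, had 1 peak outside Aged Bleo. All of these entered the consensus set through Aged Bleo, so their rises are not independent of their selection. Against Young Sham, limma on the ranks used throughout gave 1, 1 and 0 lower and 1, 0 and 0 higher in Aged Sham (background 0.718% and 0.418%), and 2, 5 and 1 lower and 4, 2 and 1 higher in Young Bleo (background 2.68% and 2.71%). Between Aged Bleo and Young Bleo, limma gave 4, 4 and 0, all higher (2.19%, 2.53% and 0%, background 1.48% in either direction). With regions without a peak at rank 0 these became 0, 1 and 0 (background 0.987%), the remaining one at Kdm6b (adjusted p = 0.0498). The other sites in this comparison, at Mef2d, Kdr, Kcnj2, Heg1, Hmox1, Nqo1 and Edn1, had no peak in Young Sham or Young Bleo. They entered the consensus set through Aged Bleo peaks, so these rises are not independent of their selection. Fisher's exact test gave 1, 1 and 0 with a peak less often (background 2.57%). Between Aged Bleo and Aged Sham, none of the 3 lists had a region past either test.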

How the data were processed

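ATAC-seq peak lists of sorted lung ECs from 18 mice were used, 1 list per mouse. Per the study's methods and the submitters' processing notes, the authors aligned reads to mm10 with BWA (0.5.9), took out duplicates by Picard MarkDuplicates (1.67) and ran MACS2 (2.0.10) on each sample at an FDR of 1%. The deposited lists give the fold enrichment at the summit over the local background as a ratio, the -log10 of p and q, and a score that rescales q and was not used here. Values were not scaled between libraries, so strength was compared as a rank within each list. Summit fragments and background coverage were solved from the deposited fold enrichment and -log10 p (tolerance 0.001 in -log10 p, at least 99.967% of peaks solved), so a height depends on MACS2's model. Peaks outside chromosomes 1 to 19, X and Y, 19 of them mitochondrial, were left out.

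Regions and TSS followed RefSeq for mm10 (45756 transcripts). Peak presence was compared with Fisher's exact test, ranks and log2 heights with limma (3.58.1, R 4.3.3) with group means over all samples, and called regions per gene with exact permutation tests (scipy 1.17.1). Tests were adjusted by Benjamini-Hochberg over all regions or genes and tested on simulated data. The genes, lists and tests were chosen with earlier results of these data known. Regions named were the TSS region and the strongest other region of each gene by median rank, and each member region past Fisher's p or limma's adjusted p of 0.05. For the other genes of the pathway, regions past a test were named, chosen after their values were seen. Alternatives were peaks with -log10 q of at least 5, lists of equal length, 50% coverage, regions in at least 3 samples, each sample left out, a replicate block, a lane term, heights, ranks among regions with a peak in all samples, and nearest TSS alone. Lane was read from the names of the deposited files. No 2 lists were identical. Promoter sequences matched 5 of the 7 genes. Results for 1 of the 77 regions, which is included in the counts, are not reported here.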

Additional observations from a re-analysis of the deposited data

Results flagged for a closer look

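In groups of 4 or 5 samples, single values that stood far from the rest of their group were looked for in 85 group and measure combinations, of which chance alone picks about 1 in 20, and 6 were found. The height of the Klf9 TSS region was 153 in Aged Sham 3, against 201 to 207 in the other Aged Sham samples. At the Klf10 TSS, the height in Young Sham 3 was 172, against 193 to 196 in the others of its group. Klf9 had 12 called regions in Young Sham 1, against 10 in each other Young Sham sample. Klf10 had 12 called regions in Young Bleo 2, against 11 in the rest of that group. Nos3 had 2 called regions in Aged Bleo 5, against 3 in the other Aged Bleo samples. Piezo1 had 7 called regions in Aged Sham 1, against 6 in the others. The last 4 are steps of 1 or 2 regions in small counts.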

How the results depend on the processing

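Counts of member regions past a test depended on the settings. For settings given without a background, the share of all regions past the test is not reported here. Such a count does not show whether members moved apart from other regions. By Fisher's exact test, requiring peaks to cover 50% of a region gave 5 calls in Aged Sham against Young Sham, 5 in Aged Bleo against Young Sham and 5 in Aged Bleo against Young Bleo. Peaks of -log10 q of at least 5 gave 4 and 2 in the last 2 comparisons, and lists of equal length gave 1 in Aged Bleo against Young Sham. With each sample left out, the Fisher counts ran from 1 to 2 in Aged Sham, 2 to 3 in Young Bleo and 2 to 6 in Aged Bleo against Young Sham, 0 to 0 in Aged Bleo against Aged Sham and 0 to 1 in Aged Bleo against Young Bleo. The limma counts ran from 1 to 2, 5 to 8, 3 to 11, 0 to 1 and 0 to 1, with 0 to 0 for the interaction.

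With lane as a term, limma gave 0, 1, 0, 0 and 0 calls in the 5 comparisons. Over the 29 members with a peak in all samples, heights gave 0, 2, 2, 0 and 0, and ranks among such regions gave 0 in Aged Sham against Young Sham and 0 in both comparisons of Aged Bleo with another group than Young Sham, where fewer regions were tested. In Aged Bleo against Young Sham, lists of equal length gave 6, and in Aged Bleo against Aged Sham they gave 0, as did 50% coverage and regions in at least 3 samples. In Aged Bleo against Young Bleo, 50% coverage gave 2, regions in at least 3 samples 0, and no-peak regions at rank 0, an alternative chosen after seeing the data, 2 (background 0.987%). The direction of a named result reversed in 3 cases, Klf6 8928 bp downstream (-20.0 with 50% coverage), Klf9 10572 bp downstream (16.4 with the lane term) and the Klf6 count in Aged Bleo against Young Bleo (0.150 with lists of equal length). The cause was not tested.

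Same-numbered samples of different groups did not pair, as their deviations correlated between -0.28 and 0.34 over 25 pairs, 6 of them above 0.1, and 4 of 18 samples were closest to their own number. With a replicate block, limma gave 4 calls in Aged Bleo against Young Sham, 0 in Aged Bleo against Aged Sham and 0 in Aged Bleo against Young Bleo. The shares of all regions under this block are not reported here. In the per-gene counts, sign flips over pairs cannot go below a p of 0.125 with 4 pairs. Fisher's test had no paired form here. A region without a peak may hold signal below the caller's threshold, which a short list raises, so absence means not detectable at that depth.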
